A study of Mus musculus with 4 samples.

Results

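The genes of cholesterol and fatty acid synthesis were compared between 4T1 mouse breast cancer cells of high and low mitochondrial membrane potential (MMP). The 29 genes were taken by name, with earlier results of these data known, and all 29 were found among the 20197 genes of the table. They comprised 18 enzymes of the sterol branch, 6 enzymes of the fatty acid branch and 5 genes that regulate the pathway or carry sterols. 4T1 is a mammary tumor line that forms lung metastases in mice, used here with the genotype WT and grown in DMEM with 10% FBS. Cells of both groups were stained with the dye MitoSpy Red at 20 nM, which accumulates in mitochondria with their membrane potential, and flow cytometry then collected the brightest 5% as high MMP cells and the dimmest 5% as low MMP cells. Each group had 2 samples, each from 100000 sorted cells and 200 ng of RNA, and no unsorted cells were analysed here. Both groups came from a single cell line and differed only in the gate, so no group carried a genetic change or a drug.

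Cells make cholesterol from acetyl-CoA through the mevalonate pathway, which yields farnesyl diphosphate, and then through squalene and lanosterol. Fatty acids are built from the same acetyl-CoA by acetyl-CoA carboxylase and fatty acid synthase, and are then elongated, desaturated and activated. The SREBP transcription factors, encoded by *Srebf1* and *Srebf2*, drive both branches: SREBP2 is best known for sterol genes and SREBP1 for fatty acid genes. When membranes are poor in sterols, SCAP escorts the SREBP precursors from the endoplasmic reticulum to the Golgi for cleavage, and INSIG1 retains them when sterols are plentiful.

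The bases upstream of 5 members are shown because SREBP acts on such promoters together with NF-Y, which binds CCAAT, and because both branches and a regulator are then seen side by side. They are the 250 bases before RefSeq start sites on build GRCm38.p6, written 5′ to 3′ on the strand of the gene. Capitals mark TCACNCCAC, a form of the sterol regulatory element, and CCAAT, each in either orientation, so that CCAAT on the other strand reads ATTGG. Hmgcs1 lies at chr13:119690101-119690350 on the plus strand, Mvd at chr8:122443423-122443672 on the minus strand, Fasn at chr11:120824548-120824797 on the minus strand, Acsl3 at chr1:78657575-78657824 on the plus strand, and the window of Srebf1, 1 of 3 for that gene, at chr11:60210472-60210721 on the minus strand.
Hmgcs1: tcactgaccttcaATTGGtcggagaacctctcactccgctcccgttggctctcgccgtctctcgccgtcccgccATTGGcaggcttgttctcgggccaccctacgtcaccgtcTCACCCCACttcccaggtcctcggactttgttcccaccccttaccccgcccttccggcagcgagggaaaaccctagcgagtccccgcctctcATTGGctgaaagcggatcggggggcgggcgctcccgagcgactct
Mvd: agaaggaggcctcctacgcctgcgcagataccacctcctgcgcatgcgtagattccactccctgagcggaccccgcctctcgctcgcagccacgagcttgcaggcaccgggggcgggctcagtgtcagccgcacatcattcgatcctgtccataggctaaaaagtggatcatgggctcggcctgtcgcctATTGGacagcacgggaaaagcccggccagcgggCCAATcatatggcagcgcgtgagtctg
Fasn: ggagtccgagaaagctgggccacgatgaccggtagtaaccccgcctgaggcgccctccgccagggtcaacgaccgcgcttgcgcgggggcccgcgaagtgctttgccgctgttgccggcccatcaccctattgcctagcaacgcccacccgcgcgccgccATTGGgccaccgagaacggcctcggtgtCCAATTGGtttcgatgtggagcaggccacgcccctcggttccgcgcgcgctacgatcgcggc
Acsl3: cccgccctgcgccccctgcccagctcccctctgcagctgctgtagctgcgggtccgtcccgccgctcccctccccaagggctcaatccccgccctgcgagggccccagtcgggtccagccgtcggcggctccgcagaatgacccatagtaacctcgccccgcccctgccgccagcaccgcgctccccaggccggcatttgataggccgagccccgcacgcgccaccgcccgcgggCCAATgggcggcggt
Srebf1: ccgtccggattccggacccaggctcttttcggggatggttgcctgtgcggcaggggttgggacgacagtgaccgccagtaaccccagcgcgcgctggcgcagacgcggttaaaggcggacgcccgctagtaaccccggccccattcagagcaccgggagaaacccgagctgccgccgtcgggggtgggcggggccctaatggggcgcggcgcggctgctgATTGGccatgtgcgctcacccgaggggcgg
The sterol regulatory element of *Hmgcs1* starts at position -137, counted from the start site. In *Fasn* a forward and a reverse CCAAT box overlap in 1 run of capitals.

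RefSeq start sites were held for 23 of the 29 members, with 29 windows in all. *Scd1*, *Scd2*, *Sqle*, *Fdft1*, *Fdps* and *Stard4* had no window in the table used. CCAAT occurred upstream of 19 of the 23 genes (82.6%), against 37.5% of 27025 genes with a window of the same length. Both strands were searched, and the background was not matched for base composition or expression. In the sterol branch 14 of 15 genes held CCAAT (93.3%), in the fatty acid branch 2 of 4 genes, and among the regulators 3 of 4 genes. GGGCGG, the GC box bound by Sp1, occurred upstream of 19 of the 23 genes (82.6%, against 35.4% of all genes), including 14 of 15 sterol genes and 1 of 4 fatty acid genes. TCACNCCAC was found upstream of *Hmgcs1* only, or 4.35% of the 23 genes against 1.22% of all genes. Other forms of the sterol regulatory element were not searched for, so a window without this match may still hold one. These are matches of letters in a short window and not measured binding.

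The libraries held between 22591970 and 26395015 reads assigned to genes. The deposited values were scaled by the authors so that each library summed to 20000000, and a value is called here a normalized read. Every member was well covered, the lowest count being 128 recovered reads for *Fdps* in high MMP replicate 2. Of 8 epithelial markers 7 were in the table. Their summed level was 50915 and 38102 normalized reads in high MMP and 44039 and 50331 in low MMP cells, mostly from *Krt8* and *Krt18*. By marker, 4 were lower and 3 higher in high MMP cells. The groups did not overlap for *Cdh1*, lower in high MMP cells (3903 and 4726 against 5421 and 5426), and *Krt14*, higher (1368 and 1529 against 1226 and 1100). Of 8 leukocyte markers 3 were in the table, with *Ptprc* between 0 and 1.77 normalized reads, *Csf1r* between 6.97 and 12.4, and *Cd68* at 59.9 and 139 in high MMP and 149 and 91.2 in low MMP cells. Of 8 stromal markers 6 were in the table, with *Pecam1*, *Cdh5* and *Adipoq* at or below 5.30 normalized reads, while *Pdgfra* had 319 and 363 in high MMP and 536 and 589 in low MMP cells. The part of such cells in the results was not tested.

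Most genes of both branches had lower mean values in high MMP than in low MMP cells, although no member passed the threshold of the main test. The difference, given here as the mean log2(normalized reads + 1) of high MMP minus that of low MMP cells, was negative for 27 of 29 members, with a median of -0.34. Over all 20197 genes the median was -0.04, and among genes that averaged 10 or more normalized reads 58.1% had a negative difference. In bulk RNA, fewer cells that express a gene and less RNA of it per cell cannot be told apart. For 15 members (51.7%) both high MMP libraries lay below both low MMP libraries, while no member had both above. That order was seen in 24.5% of all genes, and the reverse order in 13.5%. Since the members were chosen with earlier results of these data known, these shares only describe them.

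With limma, 0 of 29 members and 0 of 20197 genes had an adjusted p under 0.05, so percent called was 0 in either direction. At an unadjusted p under 0.05, limma gave 10 members, all lower in high MMP cells, against 6.01% of all genes lower and 3.95% higher. The 10 were *Scd1*, *Scd2*, *Elovl6* and *Acsl3* of the fatty acid branch, *Fdps*, *Sqle*, *Cyp51*, *Tm7sf2* and *Dhcr7* of the sterol branch, and *Srebf1*. edgeR on the recovered reads also had 0 members past an adjusted p of 0.05, with 10 members, all lower, at an unadjusted p under 0.05, against 4.08% of the genes it tested lower and 3.83% higher. DESeq2 had 2 members past it, *Scd2* and *Scd1*, against 0.309% of 11974 genes called lower. The study describes its replicates as independent experiments or tumors, but the sample labels do not tie a library to a culture or sort, so the p-values measure the spread between these samples. An exact permutation test of 2 against 2 samples cannot go below 0.333. Leaving out 1 library moved the difference of 25 of 29 members by over 1.5 times. The 4 that moved less were *Scd1*, *Scd2*, *Elovl6* and *Tm7sf2*.

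**Figure D1:**
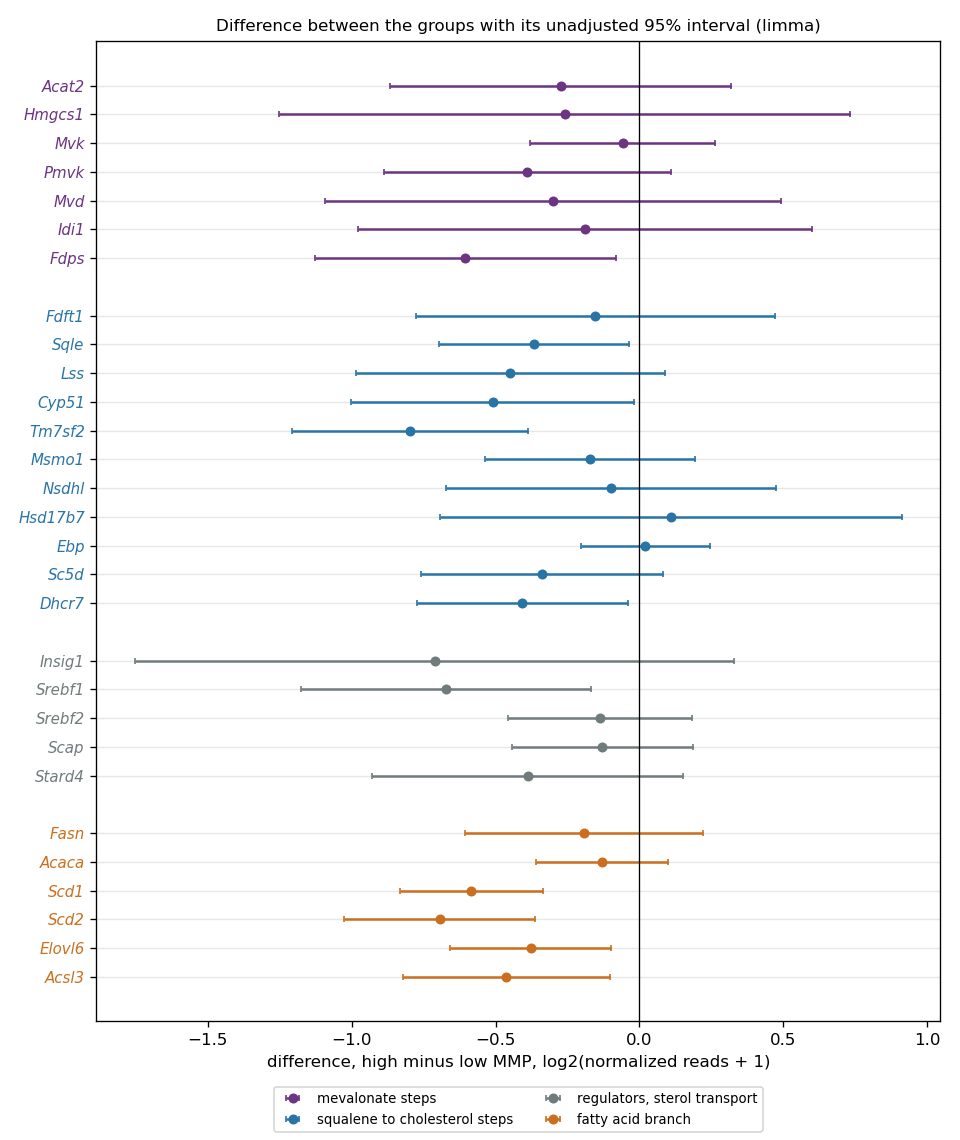
Difference of each member between high and low MMP cells (x axis, high minus low, log2(normalized reads + 1)) with its unadjusted 95% interval from limma, 2 samples per group, colored by step of the pathway. Of 29 points 27 lie left of 0, and the intervals of 10 members exclude 0 before adjustment for all genes tested.

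In the fatty acid branch, all 6 genes had negative differences, from -0.69 to -0.13 with a median of -0.42. The 2 groups did not overlap for 5 of the 6 (*Scd1*, *Scd2*, *Elovl6*, *Acsl3* and *Acaca*), an order seen in 24.5% of all genes. *Scd2*, a stearoyl-CoA desaturase that introduces the double bond of monounsaturated fatty acids (ENSMUSG00000025203, chr19:44293674-44306864), had 17983 and 19060 normalized reads in high MMP replicates 1 and 2, and 29207 and 30734 in low MMP replicates 1 and 2. Both low MMP libraries stood well above both high MMP libraries, and replicates of a group were close to each other. The low MMP mean was 1.62-fold the high MMP mean on the log scale used (difference -0.69, SE 0.12, 95% interval -1.03 to -0.36, limma adjusted p = 0.472).

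*Scd1*, another stearoyl-CoA desaturase on the same chromosome (ENSMUSG00000037071, chr19:44394455-44407879), had 1462 and 1453 normalized reads in high MMP and 2062 and 2315 in low MMP cells. The groups were again apart, and the high MMP replicates were nearly equal. Its difference was -0.58 (SE 0.09, limma adjusted p = 0.472). With DESeq2 the adjusted p was 0.000597 for *Scd2* and 0.0412 for *Scd1*. Over the other settings, which included limma, edgeR and leaving out single libraries, it ran from 0.205 to 0.938 for *Scd2* and from 0.190 to 0.900 for *Scd1*. The 2 genes are similar in sequence: 1.78% of the 75-base windows of *Scd2* transcripts and 3.15% of those of *Scd1* also occur in another gene, mainly of the same family.

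*Elovl6*, which elongates palmitate to stearate (chr3:129532355-129638495), had 2664 and 2342 normalized reads in high MMP and 3136 and 3360 in low MMP cells, without overlap (difference -0.38, SE 0.10, limma adjusted p = 0.472). *Acsl3*, an acyl-CoA synthetase that activates long chain fatty acids and functions at lipid droplets, had a difference of -0.46 (SE 0.13), which was -0.30 without high MMP replicate 1. *Fasn*, which encodes fatty acid synthase (ENSMUSG00000025153, chr11:120805846-120824547), had 20405 and 16897 normalized reads in high MMP and 20210 and 22270 in low MMP cells. Here high MMP replicate 1 exceeded low MMP replicate 1, so the groups overlapped, and the difference was -0.19 (SE 0.15, 95% interval -0.61 to 0.22). *Acaca*, the acetyl-CoA carboxylase of the committed step (chr11:84129672-84401651), had 2567 in both high MMP libraries and 2932 and 2689 in low MMP cells. The groups were apart, but the difference of -0.13 (SE 0.08) had a 95% interval from -0.36 to 0.10, and was -0.07 without low MMP replicate 1. For *Acaca*, 26.8% of the 75-base windows occur in another gene on the same strand, so its value depends on how shared reads were counted.

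Per kilobase of exon, *Scd2* had the highest level of the 29 members with 4437 normalized reads, followed by *Fasn* with 1822. Together they made up 81.8% to 83.6% of the normalized reads of the fatty acid branch in the 4 libraries. The summed level of the branch was 46385 and 43951 normalized reads in high MMP and 59547 and 63386 in low MMP cells, so this sum mostly follows those 2 genes.

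In the mevalonate steps, all 7 differences were negative but spread widely between replicates, with a median of -0.27. *Hmgcs1*, which condenses acetyl-CoA with acetoacetyl-CoA to HMG-CoA (ENSMUSG00000093930, chr13:119690379-119708260), had 3768 and 2264 normalized reads in high MMP and 2712 and 4507 in low MMP cells. High MMP replicate 1 and low MMP replicate 2 were the high libraries, 1 from each group. The difference was -0.26 with an SE of 0.36 and a 95% interval from -1.25 to 0.73, and the replicates of either group differed by 0.73 or more.

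*Idi1*, the isopentenyl diphosphate isomerase (chr13:8885501-8892451), had 768 and 461 normalized reads in high MMP and 601 and 767 in low MMP cells. Here too the same 2 libraries were high, the groups overlapped and the difference was -0.19 (SE 0.29). *Acat2*, the cytosolic thiolase at the entry of the pathway (chr17:12942890-12960747), had 1606 and 1100 in high MMP and 1476 and 1749 in low MMP cells. Low MMP replicate 2 was highest and high MMP replicate 2 lowest (difference -0.27, SE 0.22), and without the latter the difference was -0.0004. For *Acat2*, 33.9% of the 75-base windows are shared with *Acat3*, and for *Idi1* 16.7% with other genes, so both values are uncertain in that respect.

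*Fdps*, which makes farnesyl diphosphate (chr3:89093588-89101959), had 111 and 107 normalized reads in high MMP and 143 and 193 in low MMP cells. It did not overlap between groups and had the largest difference of the mevalonate steps (-0.61, SE 0.19, limma adjusted p = 0.472). Of its windows 23.5% also occur in other genes, which were mainly predicted genes, so its value depends on how shared reads were counted. Its level per kilobase of exon was low, at 32.9 normalized reads. *Pmvk*, the phosphomevalonate kinase (chr3:89454541-89469013), had 530 and 454 in high MMP and 554 and 745 in low MMP cells, also without overlap (difference -0.39, SE 0.18). Without low MMP replicate 2 the differences were -0.39 for *Fdps* and -0.18 for *Pmvk*. *Mvd*, which decarboxylates mevalonate diphosphate, had a difference of -0.30 (SE 0.29), and *Mvk*, the mevalonate kinase, one of -0.06 (SE 0.12).

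Of the 11 genes that lead from squalene synthesis to cholesterol, 9 had negative differences, with a median of -0.34. *Tm7sf2*, a sterol C14 reductase (ENSMUSG00000024799, chr19:6062821-6068373), had 120 and 146 normalized reads in high MMP and 237 and 225 in low MMP cells. The groups were well apart and this was the largest difference of the 29 members, at -0.80 (SE 0.15, 95% interval -1.21 to -0.39, limma adjusted p = 0.472), or 1.74-fold higher in low MMP cells. Its level per kilobase of exon was low, at 41.3 normalized reads, and 8.83% of its 75-base windows are shared with *Vps51*.

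*Sqle*, the squalene epoxidase and a rate-limiting step (ENSMUSG00000022351, chr15:59315077-59331192), had 2328 and 2388 normalized reads in high MMP and 2758 and 3353 in low MMP cells. *Dhcr7*, which reduces 7-dehydrocholesterol to cholesterol (chr7:143823145-143848410), had 671 and 663 in high MMP and 790 and 991 in low MMP cells. Both genes had nearly equal high MMP replicates below both low MMP replicates, with differences of -0.37 (SE 0.12) for *Sqle* and -0.41 (SE 0.13) for *Dhcr7*, each with a limma adjusted p of 0.472. Without low MMP replicate 2 the differences were -0.23 for *Sqle* and -0.24 for *Dhcr7*. A further 3 members had no overlap and negative differences, namely *Cyp51*, the lanosterol demethylase, at -0.51 (SE 0.18), *Lss*, the lanosterol synthase, at -0.45 (SE 0.20), and *Sc5d*, a sterol desaturase, at -0.34 (SE 0.15). Without low MMP replicate 2 they were -0.32 for *Cyp51* and -0.17 for *Sc5d*, and without high MMP replicate 2 that of *Lss* was -0.25.

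The other 5 enzymes overlapped between groups. The differences were -0.17 (SE 0.13) for the methylsterol monooxygenase *Msmo1*, -0.15 (SE 0.23) for the squalene synthase *Fdft1* and -0.10 (SE 0.21) for the sterol dehydrogenase *Nsdhl*. *Hsd17b7*, a sterol ketoreductase, and *Ebp*, a sterol isomerase, were the 2 members with positive differences, of 0.11 (SE 0.30) and 0.02 (SE 0.08). All 4 libraries of *Ebp*, chosen here after its values were seen, lay between 560 and 591 normalized reads, so it varied little within or between groups.

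**Figure D2:**
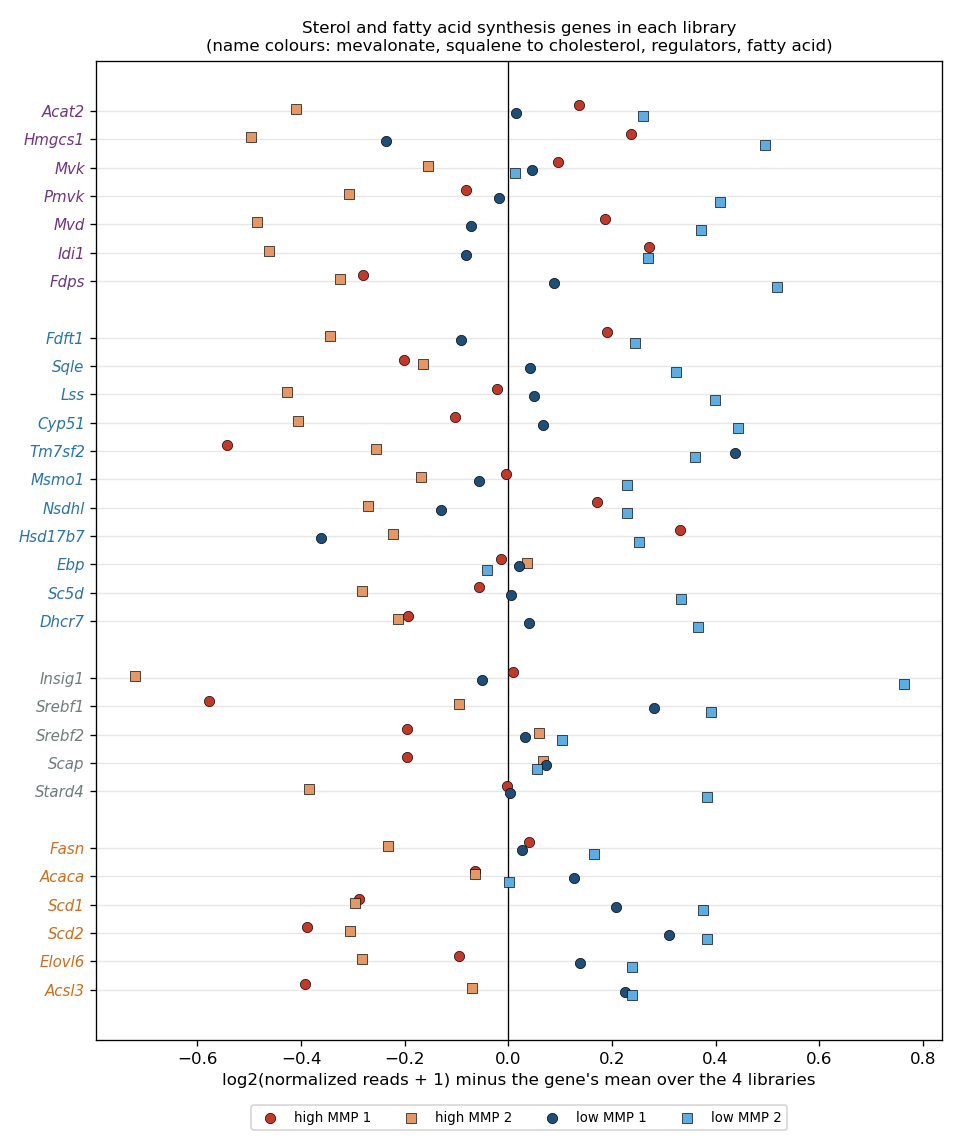
Level of each member in each of the 4 libraries (x axis, log2(normalized reads + 1) minus the mean of the gene over the libraries), with red and orange points for high MMP and blue points for low MMP, offset vertically for legibility. Blue points lie right of red and orange points for 15 of 29 genes, among them *Scd1* and *Scd2*, whereas in *Hmgcs1* and *Hsd17b7* 1 library of each group lies on either side.

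Among the regulators, *Srebf1* stood below in high MMP cells and *Srebf2* did not separate. *Srebf1*, which encodes SREBP1 (ENSMUSG00000020538, chr11:60199089-60222581), had 1541 and 2154 normalized reads in high MMP and 2797 and 3016 in low MMP cells. The groups were apart, although the high MMP replicates also differed (difference -0.67, SE 0.18, 95% interval -1.18 to -0.17, limma adjusted p = 0.472). The difference was -0.43 without high MMP replicate 1. *Srebf2*, which encodes SREBP2 (chr15:82147181-82205379), had 3145 and 3753 in high MMP and 3685 and 3871 in low MMP cells. High MMP replicate 2 exceeded low MMP replicate 1, and the difference was -0.14 (SE 0.12, 95% interval -0.46 to 0.18). The difference between the 2 genes was not tested.

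*Insig1*, itself a known target of SREBP (ENSMUSG00000045294, chr5:28071363-28078662), had 1925 and 1161 normalized reads in high MMP and 1847 and 3248 in low MMP cells. Only low MMP replicate 2 and high MMP replicate 2 stood away from the rest, so the difference of -0.71 had an SE of 0.38 and a 95% interval from -1.75 to 0.33, and was -0.31 without low MMP replicate 2. *Stard4*, a cytosolic sterol carrier (chr18:33199355-33213862), had 1341 and 1029 in high MMP and 1348 and 1755 in low MMP cells. High MMP replicate 1 and low MMP replicate 1 were nearly equal, so that its groups were apart by a narrow margin (difference -0.39, SE 0.20, and -0.20 without high MMP replicate 2). *Scap*, which encodes the SREBP escort protein, had a difference of -0.13 (SE 0.12).

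The 2 branches were then set side by side, as planned. The median difference was -0.29 in the sterol branch and -0.42 in the fatty acid branch. The sterol median moved with single libraries, to -0.05 without high MMP replicate 2, -0.11 without low MMP replicate 2, -0.48 without high MMP replicate 1 and -0.51 without low MMP replicate 1, while the fatty acid median stayed between -0.45 and -0.39. Relative to the mean of each gene, the median sterol gene stood at -0.01 and -0.29 in high MMP and at 0.01 and 0.33 in low MMP cells. The corresponding fatty acid values were -0.19 and -0.26 in high MMP and 0.17 and 0.24 in low MMP cells. Thus the medians of the first replicates of the 2 groups were close in the sterol branch, and the fatty acid medians followed their group in all libraries. *Fasn* alone overlapped between groups in the fatty acid branch.

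**Figure D3:**
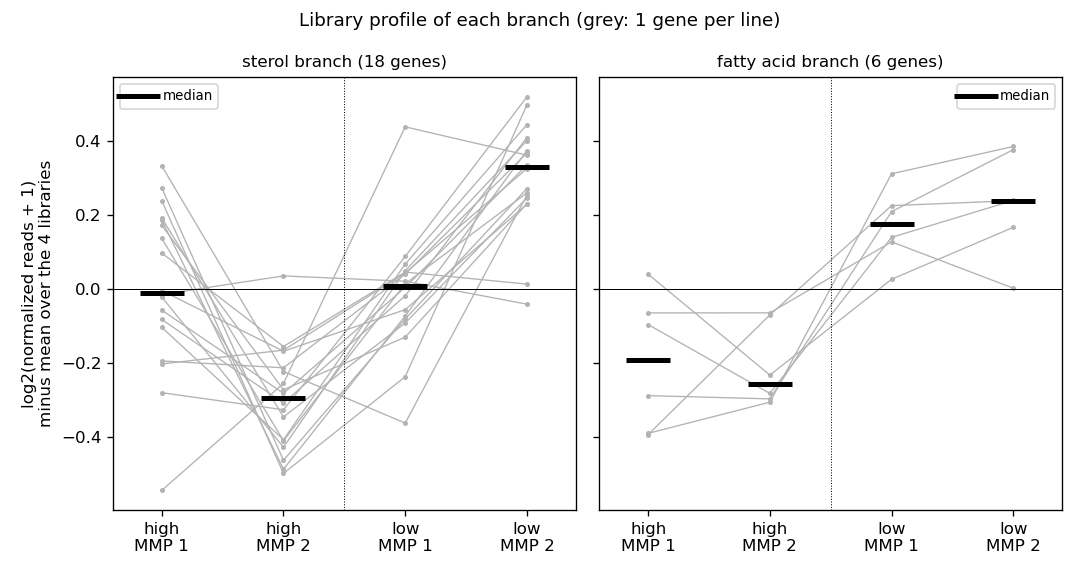
Profile of the 18 sterol genes (left) and the 6 fatty acid genes (right) over the 4 libraries, with log2(normalized reads + 1) minus the mean of the gene on the y axis, a grey line per gene that only joins its values, and a black bar for the median. The sterol medians of high MMP 1 and low MMP 1 nearly coincide at -0.01 and 0.01, whereas both fatty acid medians of high MMP lie below both of low MMP.

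A larger difference between replicates of a group than between the group means was seen in 11 of 18 sterol genes and in 1 of 6 fatty acid genes, *Fasn*. Of all genes that averaged 10 or more normalized reads, 74.2% showed this. The mean of the sterol genes on the log2 scale varied between replicates with a pooled SD of 0.22 (difference -0.29), and that of the fatty acid genes with one of 0.03 (difference -0.41). For each library, the mean of the sterol branch was set against the mean of the fatty acid branch. This gap was -2.24 and -2.54 in high MMP and -2.63 and -2.38 in low MMP cells. The groups overlapped, and the change in the gap of 0.12 was smaller than the pooled SD of 0.20 between replicates. Without high MMP replicate 1 this change was -0.03 and without low MMP replicate 1 it was -0.01. It was 0.26 without high MMP replicate 2 and 0.24 without low MMP replicate 2, so its size and sign depended on single libraries.

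**Figure D4:**
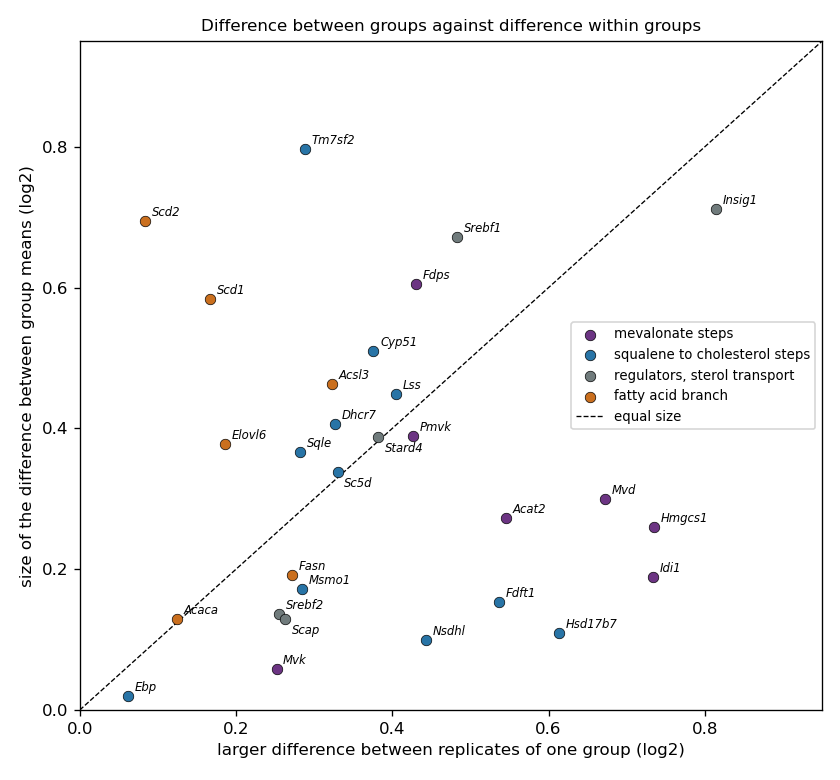
Size of the difference between the group means (y axis, log2) against the larger difference between the replicates of a group (x axis, log2) for the 29 members, with a dashed line where both are equal. *Scd2*, *Tm7sf2* and *Scd1* lie farthest above the line, and *Idi1*, *Hsd17b7* and *Hmgcs1* farthest below it.

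A common order of libraries was seen in many members. High MMP replicate 1 exceeded high MMP replicate 2 and low MMP replicate 2 exceeded low MMP replicate 1 in 19 of 29 members, among them 14 of 18 sterol genes and 3 of 6 fatty acid genes, against 32.5% of genes that averaged 10 or more normalized reads. In 17 members low MMP replicate 2 was the highest and high MMP replicate 2 the lowest library, against 10.8% of those genes. Members share their libraries, are not independent of each other and were chosen with earlier results of these data known. A list of 12 immediate-early and stress genes, including *Fos* and *Atf3*, had the same order in 11 genes, with summed levels of 41657 and 28691 normalized reads in high MMP and 21079 and 37644 in low MMP cells. *Hspa1a* was at 0 in both high MMP libraries and near 0 in the others, and the part of these genes in the sterol values was not tested.

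Many cell cycle genes were also ordered by group. Of 15 S-phase genes 13 had both high MMP libraries below both low MMP libraries, against 24.5% of all genes. Their summed levels were 58038 and 43769 normalized reads in high MMP and 67731 and 69924 in low MMP cells. Of 15 G2/M genes 13 had the reverse order, against 13.5% of all genes, with summed levels of 97796 and 103837 in high MMP and 59678 and 62740 in low MMP cells. The part of the cell cycle in the values of the 29 members was not tested.

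Further genes of sterol and fatty acid metabolism had medians close to that of all genes. Among 25 sterol genes outside the members, 14 had negative and 11 positive differences, with a median of -0.03, and with limma 0 passed an adjusted p of 0.05 (1 lower and 1 higher at an unadjusted p under 0.05). Among 33 fatty acid genes outside the members, 21 had negative and 12 positive differences, with a median of -0.05, and 0 passed (3 lower and 0 higher at an unadjusted p under 0.05). Their groups did not overlap, with high MMP lower, in 7 of the 25 (28%) and 13 of the 33 (39.4%), against 24.5% of all genes. The reverse order was seen in 4 of the 25 and 4 of the 33, against 13.5% of all genes.

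Genes of smallest p in these lists had the following values. *Fads2*, the delta-6 desaturase of polyunsaturated fatty acids, had 3583 and 3695 normalized reads in high MMP and 4830 and 4806 in low MMP cells (difference -0.41, SE 0.08, limma adjusted p = 0.472). *Fads1*, the delta-5 desaturase, had 1700 and 1923 in high MMP and 2417 and 2303 in low MMP cells (difference -0.38, SE 0.10). Both desaturases were apart between groups, like *Scd1* and *Scd2*. *Lpin1*, a phosphatidate phosphatase of glyceride synthesis, had 286 and 179 in high MMP and 398 and 474 in low MMP cells (difference -0.94, SE 0.26). For *Lpin1* the adjusted p was 0.472 with limma, 0.381 with edgeR and 0.0499 with DESeq2.

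*Abca1*, the sterol exporter, was near the limit of detection with 6 and 10 recovered reads in high MMP and 1 and 3 in low MMP cells, too few for a fold change.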

How the data were processed

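RNA-seq values of 4 samples (2 high MMP, 2 low MMP) were analysed, grouped by sample title. The authors aligned stranded paired-end reads with STAR to GRCm38 (mm10) transcripts and obtained gene counts (HTSeq is also named in the submitters' processing notes). They divided the counts by the library total and retained genes seen in 2 or more samples. Versions, annotation release and the handling of multi-mapped reads are not given in the sources used here. The deposited values are thus a normalized signal per gene, and each library sums to 20000000. Dividing by the smallest step gave whole reads for 100% of values (tolerance 0.01 reads).

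Gene identifiers were matched to GENCODE M21 (19993 of 20197 matched). Values were tested as log2(value + 1), which understates the change of low genes, with limma 3.58.1 (lmFit, eBayes with a trend) in R 4.3.3, high against low MMP, and p-values were adjusted over all 20197 genes by Benjamini-Hochberg at 0.05. The design foresaw counts or scaled values, and the scaled form applied. edgeR 4.0.16 and DESeq2 1.42.0 on recovered reads, other pseudocounts, filters, scalings and omitted libraries were alternatives. Scripts were tested on simulated data. Same-numbered samples did not deviate together. The 29 members and all lists were chosen with earlier results of these data known. Values per library are given for the 3 members of smallest p in each step list and for 10 entry and control genes, and for the genes among the 3 of smallest p in each further list, of which 2 are not reported here. Windows of 75 bases, after the 75 sequencing cycles that the study states, of all M21 transcripts were compared for sharing. The length of a single read is not given. Promoter windows that overlap an annotated exon were not printed.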

Additional observations from a re-analysis of the deposited data

How the results depend on the processing

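Over the 29 members, 421 of 435 values under the alternatives kept their direction, and 20 members never reversed. Most alternatives refitted the same 4 libraries. Some of them, such as limma without a trend or with the replicate block, return the same difference and cannot reverse it. The share of 421 of 435 is therefore not a measure of agreement between independent data. The 14 reversals all came from leaving out 1 library, and concerned 9 members. Their differences then ranged from -0.63 to 0.11 for *Hmgcs1*, -0.64 to 0.036 for *Mvd*, -0.18 to 0.0675 for *Mvk*, -0.56 to 0.18 for *Idi1*, -0.42 to 0.11 for *Fdft1*, -0.32 to 0.12 for *Nsdhl*, -0.20 to 0.42 for *Hsd17b7*, -0.0108 to 0.051 for *Ebp* and -0.26 to 0.0025 for *Scap*. The median of the sterol branch ranged from -0.51 to -0.0478 and the gap between branches from -0.0318 to 0.26. Median-of-ratios rescaling gave a fatty acid median of -0.38. The number of genes past an adjusted p of 0.05 was 0 with limma in each setting run and with edgeR without the replicate block, and 118 with DESeq2, which called 2 members. The cause of this difference between tools was not tested.

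Deviations of same-numbered samples correlated at -0.42 over 12902 genes that averaged 10 or more normalized reads. Over 17694 genes that averaged 1 or more the correlation was -0.19. These values do not tell whether same-numbered samples came from the same sort. Whether the numbers are crossed between the groups (high MMP 1 with low MMP 2) cannot be told from the labels. With the replicate block, edgeR called 52 genes and 0 members (719 genes and 10 members at an unadjusted p under 0.05), and 106 genes without a filter. With that block limma called 0 (1055 genes and 5 members at an unadjusted p under 0.05). A block with crossed numbers, chosen after seeing the data, gave 621 of 13329 genes and 11 members with edgeR and 0 with limma. At an unadjusted p under 0.05 it gave 17 members with either tool, against 2137 of 13329 genes with edgeR and 2128 of 20197 genes with limma.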
